A study of Mus musculus with 21 samples.

Results

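The 8 imprinted genes H19, Meg3, Igf2r, Cdkn1c, Grb10, Dlk1, Ndn and Peg3 were read in RNA-seq libraries of sorted mouse hematopoietic stem cells (HSCs). They were chosen by symbol, as imprinted genes that have been linked to HSC quiescence, and all 8 had a row among the 47729 genes of the deposited count table. The libraries come from a study of how HSCs handle misfolded proteins, with the proteasome and autophagy as the routes under test.

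An imprinted gene is read from the copy of 1 parent, because the other copy is silenced by DNA methylation or a non-coding RNA set in the germ line. H19, Meg3, Igf2r and Cdkn1c are read from the maternal copy in mice, as is Grb10 in most tissues, and Dlk1, Ndn and Peg3 are read from the paternal copy. Several of these genes restrain growth, through insulin-like growth factor (IGF) signalling or the cell cycle, and in mouse HSCs the H19-Igf2 domain, the Dlk1-Meg3 domain and Cdkn1c are known for their part in keeping the cells out of cycle. Counts per gene do not separate the parental copies, so imprinting itself was not measured here.

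The 21 SMART-seq2 libraries fall into 7 groups of 3, all from bone marrow HSCs sorted as CD48- LSK CD150+ cells, where LSK stands for cells with Sca-1 and Kit and without lineage markers. In the treatment experiment, mice labelled Mx1-Cre;Atg5fl/fl, called KO here after the Atg5-/- of their titles, received bortezomib (KO bortezomib) or DMSO (KO DMSO), and wild-type mice received bortezomib (WT bortezomib) or DMSO (WT DMSO). Bortezomib, a proteasome inhibitor, was given at 10 mg/kg and DMSO at 10%, both behind the eye 48 h and 24 h before analysis. In the reporter experiment, HSCs of untreated mice that carry the RFP-EGFP-LC3 autophagy reporter were sorted as RFP single positive, RFP GFP double positive or double negative cells. Mx1-Cre is an interferon-inducible Cre that acts in many tissues besides blood. No source used here gives the induction scheme, the age of the mice or whether libraries of a group came from separate animals, so p-values measure only the spread between these libraries, which may be technical.

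Libraries held 15005500 to 31481691 counts. Atg5, whose protein joins the complex that attaches LC3 to membranes, averaged 111 ± 27.2 CPM (counts scaled to library size) in KO bortezomib and 112 ± 3.77 in KO DMSO libraries, against 103 ± 31.6 in WT bortezomib and 56.5 ± 17.4 in WT DMSO (SD, n = 3 each). A count over the whole gene does not isolate a deleted exon, so it checks nothing about the genotype label. The summed level of 8 HSC markers was 1760 to 1910 CPM in KO bortezomib libraries and 2090 to 2630 CPM in KO DMSO, and 1110 to 1290 CPM in WT bortezomib against 1840 to 2040 CPM in WT DMSO. None of the 8 was at 0 in any group. The share of Xist in the sum of Xist and Ddx3y is a readout of the sex of the cells. It was under 1% in each KO DMSO library, against 99.2%, 98.6% and 60% in WT DMSO. Sex and genotype therefore cannot be told apart between the DMSO groups, which also enter the interaction. The share varied within the other groups. WT DMSO replicate 3 (60%) and WT bortezomib replicates 1 (46.4%) and 2 (31.8%) held many reads of both genes. Replicate 3 of KO bortezomib, WT bortezomib and WT DMSO stood apart from the rest in an earlier look at these data. Without these 3 libraries the member calls given below held except for Meg3 between genotypes under bortezomib (adjusted p = 0.0515), and Ndn under bortezomib in KO (adjusted p = 0.00211), Cdkn1c under bortezomib in WT (0.0112) and Grb10 between genotypes under bortezomib (0.0291) were called lower in addition.

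Promoter sequence is shown for 3 members, Igf2r, which was called under bortezomib in both genotypes, and the neighbours Dlk1 and Meg3, which are read from opposite parental copies. RefSeq (GRCm38.p6) gave a promoter window of 300 bases around a start for 6 of the 8 members. In the 3 windows below, capitals mark the E-box core CACGTG or the cyclic AMP response element (CRE) TGACGTCA, and each was searched on both strands.
Igf2r, chr17:12769657-12769956, minus strand: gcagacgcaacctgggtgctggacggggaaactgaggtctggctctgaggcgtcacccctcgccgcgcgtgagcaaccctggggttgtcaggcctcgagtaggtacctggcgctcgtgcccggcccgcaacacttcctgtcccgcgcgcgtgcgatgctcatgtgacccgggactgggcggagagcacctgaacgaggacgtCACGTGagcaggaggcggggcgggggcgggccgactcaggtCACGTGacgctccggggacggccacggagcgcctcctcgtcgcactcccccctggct
Meg3, chr12:109540746-109541045, plus strand: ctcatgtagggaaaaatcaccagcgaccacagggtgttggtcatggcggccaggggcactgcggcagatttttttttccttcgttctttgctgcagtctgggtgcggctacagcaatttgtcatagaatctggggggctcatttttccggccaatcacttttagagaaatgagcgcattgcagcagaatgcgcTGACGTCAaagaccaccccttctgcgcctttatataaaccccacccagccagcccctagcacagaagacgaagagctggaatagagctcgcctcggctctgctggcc
Dlk1, chr12:109452573-109452872, plus strand: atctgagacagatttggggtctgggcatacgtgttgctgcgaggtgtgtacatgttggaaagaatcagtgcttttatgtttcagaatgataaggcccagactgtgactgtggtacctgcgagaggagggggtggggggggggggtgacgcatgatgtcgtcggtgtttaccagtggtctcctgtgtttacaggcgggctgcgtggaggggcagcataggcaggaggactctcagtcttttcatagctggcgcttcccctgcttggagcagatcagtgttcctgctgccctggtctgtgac
The Igf2r window held 2 E-box cores, a motif present in 7.15% of 32851 promoter windows, and was the only one of the 6 with a match. The Meg3 window held 1 CRE, as did that of Peg3, and 1.79% of all windows held one. The Dlk1 window held neither, nor TGANTCA or TGACNNNGC, which were found in 7.81% and 12.4% of all windows. A match describes letters and not a bound site.

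H19 is also the host of miR-675, a microRNA cut from its first exon. Its 2 arms are shown because H19 was the member detected in the fewest libraries, with capitals for the seed (bases 2 to 8). The arms have different seeds, and the gene-level counts do not measure the mature microRNA.
mmu-miR-675-5p: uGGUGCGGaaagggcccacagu
mmu-miR-675-3p: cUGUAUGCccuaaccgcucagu

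On a scale of CPM per kilobase of annotated exon, 2 members dominated. In WT DMSO libraries Cdkn1c stood at 29.5 ± 5.92 and Ndn at 24.2 ± 4.06 CPM per kb, followed by Grb10 at 9.18 ± 1.4 CPM per kb. Dlk1 stood at 0.946 ± 0.138 and Igf2r at 0.825 ± 0.15 CPM per kb, and H19 (0.123 ± 0.109), Meg3 (0.0649 ± 0.0113) and Peg3 (0.0318 ± 0.0551) lay lower still (SD, n = 3). H19 had reads in 12 and Peg3 in 13 of the 21 libraries, and the other 6 members in all 21. CPM are scaled within each experiment, so levels are compared only within it.

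**Figure D1:**
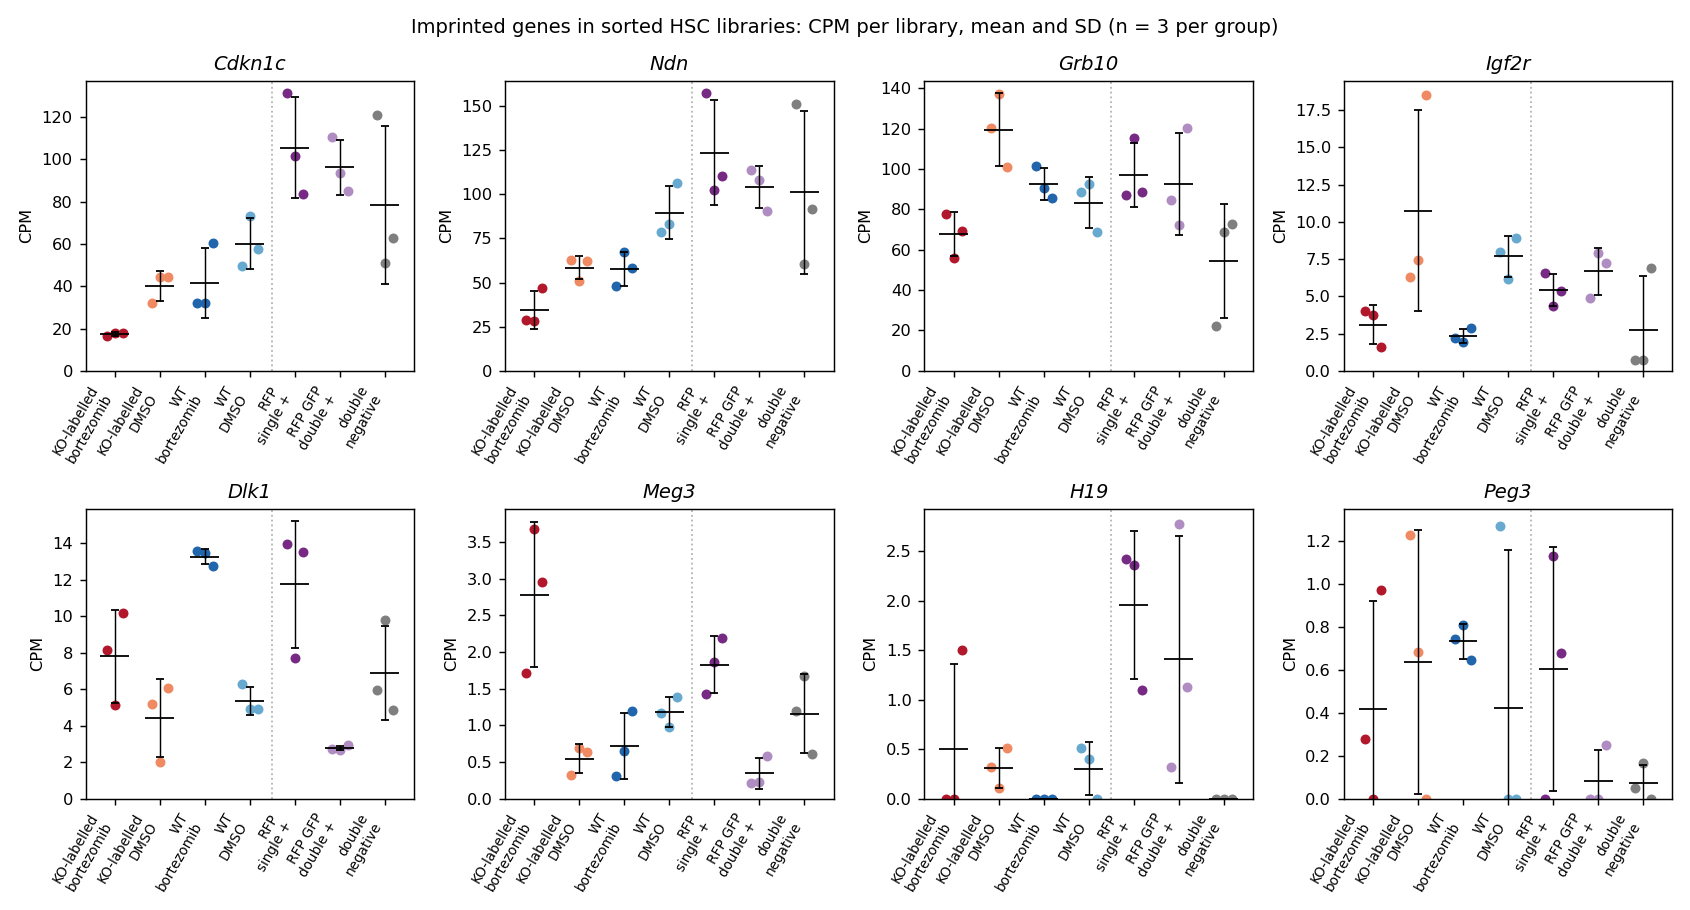
CPM of the 8 members (y axis, linear, own scale per gene) in each library by group (x axis), with the mean as a line and the SD as an error bar, cut at 0. The dotted line parts the treatment from the reporter experiment. Cdkn1c is lowest in the 3 KO bortezomib libraries, Dlk1 highest in the treatment experiment in the 3 WT bortezomib libraries, and H19 is at 0 in every WT bortezomib and double negative library.

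In the fits over all genes (edgeR, adjusted p under 0.05), bortezomib changed 2 of 8 members in WT HSCs, where Igf2r fell and Dlk1 rose. This compares with 15.5% of the 16149 genes tested. In KO HSCs bortezomib changed 3 of 8 members, against 3.63% of all genes, and Cdkn1c, Grb10 and Igf2r all fell. Between genotypes under bortezomib 3 of 8 members differed, with Cdkn1c and Ndn lower and Meg3 higher in KO, against 32.4% of all genes, so that this share of members is close to the share of all genes. The response to bortezomib differed between genotypes for 1 of 8 members, Grb10, against 9.05% of all genes. Under DMSO no member differed between genotypes, and neither did any other gene (0%). At an unadjusted p under 0.05 edgeR gave 1454 genes there, 3 of them members, and DESeq2 and limma voom called 140 and 114 genes after adjustment, 0 of them members. Counted by direction, bortezomib raised 2.02% and lowered 1.61% of all genes in KO HSCs, and raised 7.97% and lowered 7.56% in WT HSCs. Under bortezomib 17.2% were higher and 15.3% lower in KO than in WT, and the interaction was positive for 4.35% and negative for 4.71%. These comparisons share libraries and are not independent of each other. None of these edgeR comparisons called H19 or Peg3, and both had 0 counts in some libraries of this experiment.

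Summed markers of some other blood cells lay apart between bortezomib and DMSO libraries, and those of others overlapped. The summed level of 6 erythroid markers was 49 to 76.5 CPM in KO bortezomib against 94.7 to 213 in KO DMSO libraries, and 187 to 222 CPM in WT bortezomib against 69.5 to 96 in WT DMSO. For 6 markers of monocytes and macrophages it was 92.1 to 93.4 CPM in KO bortezomib against 54.9 to 73.7 in KO DMSO, and 110 to 208 CPM in WT bortezomib against 76.9 to 98.6 in WT DMSO, with none at 0 in any of these groups. For 6 markers of T and NK cells it was 43.8 to 122 CPM in KO bortezomib against 80.9 to 136 in KO DMSO, and 146 to 213 CPM in WT bortezomib against 82.2 to 89.9 in WT DMSO, with Cd3e and Cd3g at 0 in all 4 groups. The T and NK sums thus overlapped in KO and not in WT. Sums of 6 neutrophil markers overlapped in both genotypes, at 6.17 to 21.1 CPM in KO bortezomib against 7.23 to 13.8 in KO DMSO. In WT they were 20.3 to 53.2 CPM in bortezomib against 14.6 to 34 in DMSO libraries. Sums of 6 B cell and of 5 megakaryocyte markers overlapped in both genotypes as well. The part of these cells in the member values was not tested.

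**Figure D2:**
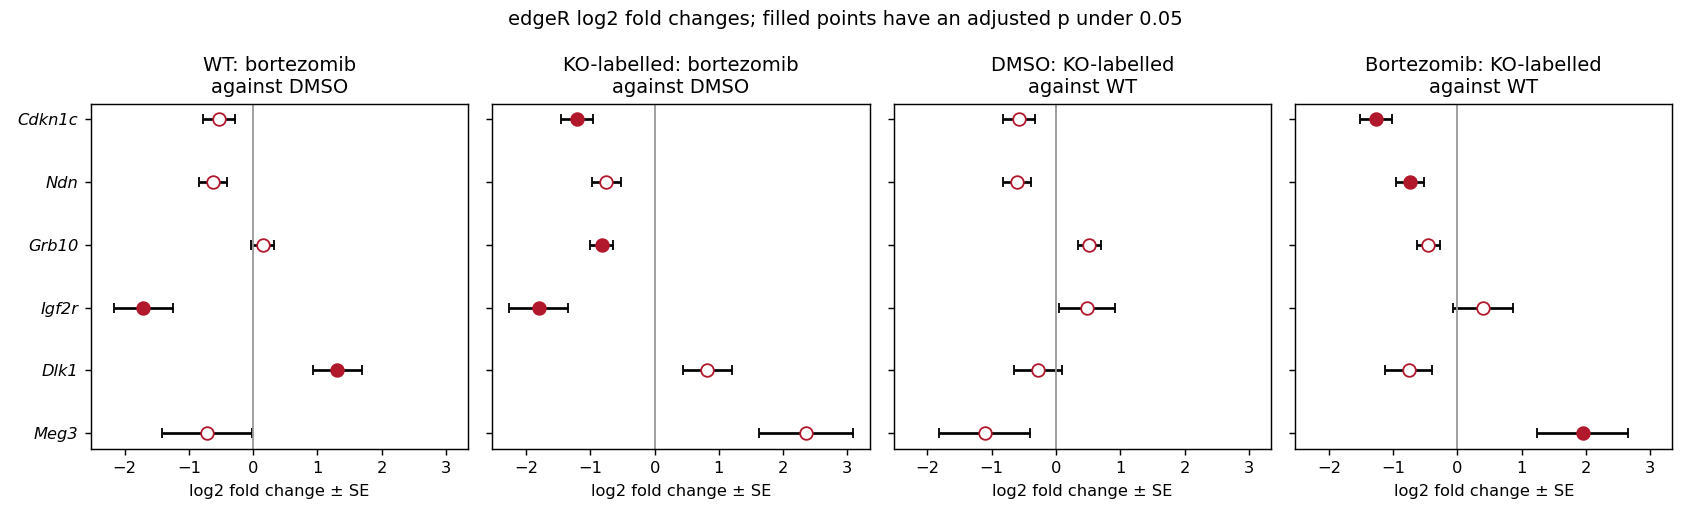
Log2 fold change and its SE (x axis) of 6 members (y axis) in the 4 comparisons of the treatment experiment, from edgeR fits over all genes, with the first-named group of each panel over the second. Filled points have an adjusted p under 0.05. Cdkn1c and Ndn lie left of 0 in all 4 panels, at -1.26 to -0.53 and -0.75 to -0.61, and Igf2r lies at -1.8 in KO and -1.71 in WT where bortezomib is set against DMSO.

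Cdkn1c (ENSMUSG00000037664.13, GRCm38 chr7:143458339-143461050, minus strand) encodes p57, an inhibitor of cyclin-dependent kinases of the Cip/Kip family. It read 16.4, 18.1 and 17.7 CPM in KO bortezomib libraries, against 32.1, 44.5 and 44.1 CPM in KO DMSO. WT bortezomib libraries read 31.9, 32.2 and 60.5 CPM, against 49.4, 73.2 and 57.7 CPM in WT DMSO. The KO bortezomib libraries lay below every other library of the experiment, while the WT groups overlapped through 1 high bortezomib library. Cdkn1c fell under bortezomib in KO HSCs, with a log2 fold change of -1.21 (SE 0.25, adjusted p = 0.0146). Under bortezomib it was lower in KO than in WT HSCs by a log2 fold change of -1.26 (SE 0.25, adjusted p = 0.00171), and this call held in each of 15 alternative fits. The KO call ended without KO DMSO replicate 2 (adjusted p = 0.0718), KO bortezomib replicate 1 (0.0541) or KO bortezomib replicate 2 (0.0535). In WT HSCs the log2 fold change under bortezomib was -0.53 (95% interval -1.06 to 0, adjusted p = 0.161), and it was -0.91 (adjusted p = 0.0207) without WT bortezomib replicate 3. The difference between the genotypes' responses was -0.68 (SE 0.35, adjusted p = 0.244). Of the exon bases of Cdkn1c, 30.7% lie under the antisense gene Gm44732, and the counting's strand setting is not given in the sources used here, so reads of these genes cannot be told apart. In bulk libraries such as these, fewer cells with a transcript and less of it per cell cannot be told apart either.

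Of the other Cip/Kip genes, Cdkn1a rose under bortezomib and Cdkn1b was not called. Cdkn1a, which encodes p21, averaged 30.6 ± 5.53 CPM in KO bortezomib against 9.01 ± 1.11 in KO DMSO, and 13.4 ± 1.89 CPM in WT bortezomib against 6.3 ± 2.91 in WT DMSO (SD, n = 3 each). It rose under bortezomib in KO HSCs by 1.76 (adjusted p = 0.00651) and in WT HSCs by 1.08 (adjusted p = 0.033), and it was higher in KO than in WT under bortezomib by 1.19 (adjusted p = 0.00965), all as log2 fold changes. Cdkn1b, which encodes p27, averaged 7.94 ± 2.95 CPM in KO bortezomib against 9.92 ± 5.4 in KO DMSO, and 5.49 ± 1.02 CPM in WT bortezomib against 8.41 ± 4.33 in WT DMSO, with adjusted p = 0.802 in KO and 0.373 in WT.

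**Figure D3:**
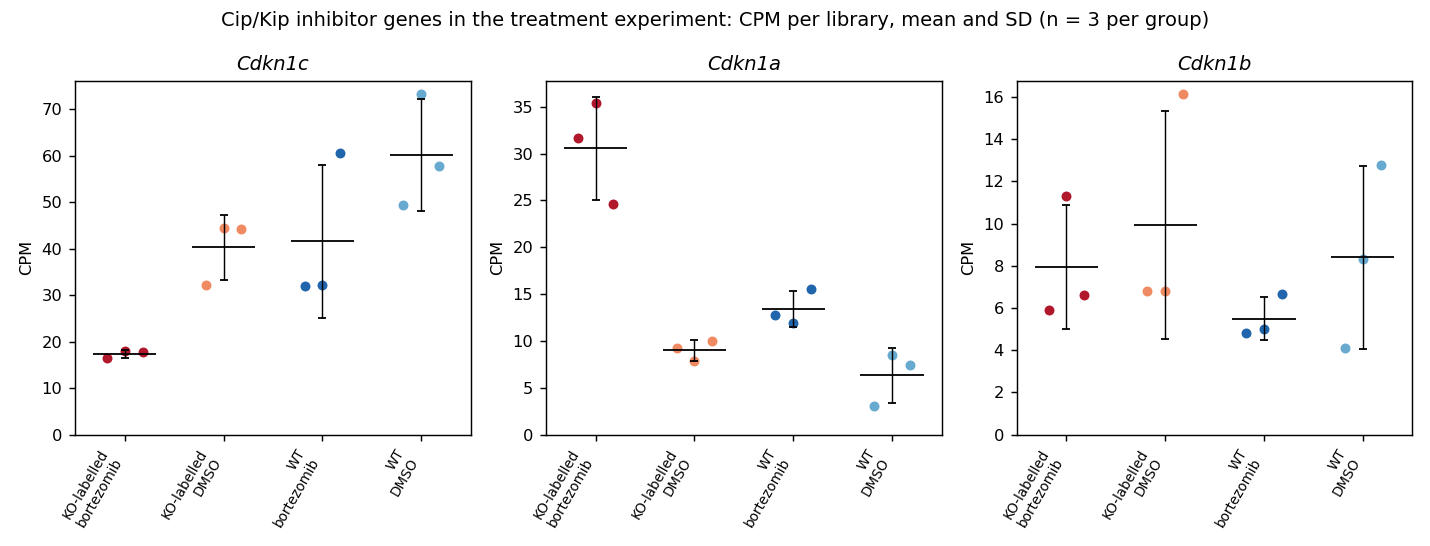
CPM of the Cip/Kip inhibitor genes Cdkn1c, Cdkn1a and Cdkn1b (y axis, linear, own scale per gene) in each library of the 4 treatment groups (x axis), with mean and SD (n = 3). In the KO bortezomib libraries Cdkn1c averages 17.4 CPM and Cdkn1a 30.6 CPM, against 40.2 and 9.01 CPM in KO DMSO.

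Ndn (ENSMUSG00000033585.5, chr7:62346569-62350262, plus strand) encodes necdin, a growth suppressor that binds p53 and E2F1. It read 28.6, 28.3 and 47.1 CPM in KO bortezomib against 62.5, 50.9 and 61.9 CPM in KO DMSO libraries. WT bortezomib libraries read 47.9, 67.1 and 58.4 CPM, against 78.5, 83.2 and 106.5 CPM in WT DMSO. All bortezomib libraries lay below all DMSO libraries of the same genotype, and the KO groups lay below their WT counterparts. Between genotypes under bortezomib Ndn was lower in KO, with a log2 fold change of -0.74 (SE 0.22, adjusted p = 0.0183). That call ended without WT bortezomib replicate 2 (adjusted p = 0.0838), KO bortezomib replicate 1 (0.0865) or KO bortezomib replicate 2 (0.0843). Under bortezomib the log2 fold change of Ndn was -0.75 in KO (SE 0.22, adjusted p = 0.0744) and -0.63 in WT (SE 0.22, adjusted p = 0.0626), and the difference between them was -0.12 (95% interval -0.78 to 0.53). Ndn was called lower under bortezomib in 7 of 15 alternative fits in KO (adjusted p of 0.00211 to 0.255 over the 15). In WT it was called lower in 7 of 15 as well (0.00483 to 0.238). Of its neighbours in the same imprinted domain, Snrpn, Mkrn3 and Peg12 averaged at most 5.43 CPM in each treatment group and were not called in any comparison, and Magel2 had 0 counts in all 21 libraries.

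Peg3 (ENSMUSG00000002265.16, chr7:6703892-6730431, minus strand), which encodes a zinc finger protein linked to cell death, had 6, 0 and 26 counts in KO bortezomib against 27, 13 and 0 in KO DMSO libraries. WT bortezomib libraries had 17, 15 and 13 counts, against 25, 0 and 0 in WT DMSO. Each pair of groups overlapped, and adjusted p was 0.924 in KO and 0.788 in WT. Its neighbours Usp29 and Zim1 had 0 counts in all libraries.

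Igf2r (ENSMUSG00000023830.13, chr17:12682406-12769664, minus strand) encodes the receptor that takes IGF2 to lysosomes and carries lysosomal enzymes. It read 3.99, 3.72 and 1.57 CPM in KO bortezomib against 6.33, 7.45 and 18.5 CPM in KO DMSO libraries. WT bortezomib libraries read 2.18, 1.94 and 2.88 CPM, against 7.98, 6.15 and 8.9 CPM in WT DMSO. Every bortezomib library lay below every DMSO library, and KO DMSO replicate 3 was the highest of the 12. Igf2r fell under bortezomib in KO (log2 fold change -1.8, SE 0.46, adjusted p = 0.0395) and in WT HSCs (log2 fold change -1.71, SE 0.46, adjusted p = 0.0218), and the difference between these responses was -0.08 (95% interval -1.44 to 1.28). The KO call ended without KO DMSO replicate 3 (log2 fold change -1.16, adjusted p = 0.202), KO DMSO replicate 2 (0.0673) or KO bortezomib replicate 1 (0.0637), 2 (0.0847) or 3 (0.0766), and it also ended when only the KO libraries were fitted (0.0963), with limma voom (log2 fold change -1.21, adjusted p = 0.0803), with the Xist share as a covariate (0.052) and with the replicate block (0.0635). In all, the KO call was lost in 9 of 15 alternative fits. The WT call ended without WT bortezomib replicate 1 (0.0876) or 2 (0.0768), or WT DMSO replicate 1 (0.0637) or 2 (0.0523). Airn, the antisense RNA that silences the paternal Igf2r copy in mice, shares 0 exon bases with it and averaged 0.685 to 1.33 CPM over the 4 groups.

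Grb10 (ENSMUSG00000020176.17, chr11:11930508-12038683, minus strand) encodes an adaptor that damps insulin and IGF1 receptor signalling. It read 77.7, 56.1 and 69.3 CPM in KO bortezomib, against 120.5, 137.4 and 100.9 CPM in KO DMSO libraries. WT bortezomib libraries read 101.3, 90.6 and 85.9 CPM, against 88.7, 92.7 and 68.9 CPM in WT DMSO. The KO groups did not overlap, and the WT groups did. Grb10 fell under bortezomib in KO HSCs, with a log2 fold change of -0.82 (SE 0.18, adjusted p = 0.0181), while in WT it was 0.15 (95% interval -0.23 to 0.53, adjusted p = 0.616). The difference between the 2 responses passed the test at -0.97 (SE 0.25, adjusted p = 0.0288). The DMSO groups enter this difference, and there KO libraries averaged 119.6 ± 18.2 CPM and WT libraries 83.4 ± 12.7 CPM (adjusted p = 0.397). The KO call ended without KO DMSO replicate 1 (0.0638) or 2 (0.11) or KO bortezomib replicate 2 (0.0834), and when only the KO libraries were fitted (0.0653). The difference between genotypes lost its call without WT bortezomib replicate 1 (0.0935) or 2 (0.0626), WT DMSO replicate 1 (0.0557) or 2 (0.0587), KO bortezomib replicate 2 (0.0731), or KO DMSO replicate 1 (0.0665) or 2 (0.0996).

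H19 (ENSMUSG00000000031.15, chr7:142575529-142578143, minus strand) is a long non-coding RNA that shares its enhancers with Igf2. It had 0, 0 and 40 counts in KO bortezomib against 7, 2 and 8 in KO DMSO libraries. WT bortezomib libraries had 0, 0 and 0 counts, against 10, 9 and 0 in WT DMSO. Counts pooled over each group were set against the floor of 3 counts. The bounds thus cover counting error in the group at 0 only. They take the counts of the other group as exact and leave out the spread between libraries. Pooled H19 was at least 5.31-fold lower in WT bortezomib than in WT DMSO (adjusted p = 0.151 in edgeR and 0.0281 in limma voom). The edgeR 95% interval of this log2 fold change was -11.26 to -0.17. Pooled H19 was at least 12.1-fold higher in KO bortezomib than in WT bortezomib (adjusted p = 0.0704 in edgeR, and 0.0205 with no filter on low counts). The edgeR 95% interval of that log2 fold change was 0.92 to 12.02. With 0 counts in WT bortezomib, the counts do not fix the size of either fold change, so both intervals are rough. The 12.1-fold bound rests on KO bortezomib replicate 3 alone, since the other KO bortezomib libraries had 0 counts, as did WT bortezomib. Without 1 library the WT bound ran between 3.33 and 9.22, and it moved most without WT bortezomib replicate 1 (3.33), WT DMSO replicate 1 (3.44) or WT DMSO replicate 3 (9.22). The bound between genotypes was 7.59 without WT bortezomib replicate 1. Summed levels of 6 endothelial markers were 7.15 to 13.8 CPM in KO bortezomib, 6.78 to 10.4 in KO DMSO, 1.13 to 1.35 in WT bortezomib and 2.31 to 10 in WT DMSO libraries, with Cdh5 and Sele at 0 in every group but KO bortezomib. KO bortezomib replicate 3, which held the 40 H19 counts, had the lowest endothelial sum of its group (7.15 CPM). The part of these cells in the H19 values was not tested.

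Dlk1 and Meg3 are neighbours on chromosome 12, read from opposite parental copies. Dlk1 (ENSMUSG00000040856.17, chr12:109452823-109463336, plus strand) encodes a membrane ligand of the Delta-like family that is known as an inhibitor of adipocyte differentiation. It read 8.13, 5.1 and 10.2 CPM in KO bortezomib against 5.19, 1.99 and 6.08 CPM in KO DMSO libraries. WT bortezomib libraries read 13.6, 13.5 and 12.8 CPM, against 6.25, 4.91 and 4.88 CPM in WT DMSO. The WT groups did not overlap, and the KO groups did. Dlk1 rose under bortezomib in WT HSCs, with a log2 fold change of 1.31 (SE 0.38, adjusted p = 0.0301). In KO HSCs the log2 fold change was 0.82 (SE 0.38, adjusted p = 0.291), and the difference between the responses was -0.49 (95% interval -1.62 to 0.64). The WT call ended without WT bortezomib replicate 1 (0.0966), 2 (0.0768) or 3 (0.0504) and without WT DMSO replicate 1 (0.0682), 2 (0.112) or 3 (0.0659), with log2 fold changes of 1.24 to 1.43. It also ended with the Xist share as a covariate (adjusted p = 0.0551).

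Meg3 (ENSMUSG00000021268.17, chr12:109541001-109571726, plus strand), a long non-coding RNA, read 1.72, 3.67 and 2.96 CPM in KO bortezomib, against 0.319, 0.682 and 0.633 CPM in KO DMSO libraries. WT bortezomib libraries read 0.305, 0.648 and 1.19 CPM, against 1.17, 0.973 and 1.38 CPM in WT DMSO. The 3 KO bortezomib libraries were the highest of the 12. Raw Meg3 counts were low, at 37, 72 and 79 in KO bortezomib and 7, 13 and 10 in KO DMSO. They were 7, 12 and 24 in WT bortezomib and 23, 22 and 43 in WT DMSO. Under bortezomib Meg3 was higher in KO than in WT HSCs, with a log2 fold change of 1.95 (SE 0.71, adjusted p = 0.0455). That call ended in 10 of 15 alternative fits, 5 of which left out WT bortezomib replicate 1 (0.161) or 2 (0.118) or KO bortezomib replicate 1 (0.0547), 2 (0.149) or 3 (0.0877). The log2 fold change under bortezomib was 2.35 in KO (SE 0.73, adjusted p = 0.0921) and -0.72 in WT (SE 0.7, adjusted p = 0.532), and their difference was 3.06 (SE 1, adjusted p = 0.0663). Meg3 was called higher in KO bortezomib than in KO DMSO by DESeq2 (adjusted p = 0.014). The summed level of 8 mesenchymal stromal markers was 40 to 65.1 CPM in KO bortezomib, 10.5 to 28 in KO DMSO, 7.63 to 12.8 in WT bortezomib and 10.9 to 29.6 in WT DMSO libraries, with Lepr and Lum at 0 in KO bortezomib, and its part in the Meg3 values was not tested. Rian, a non-coding RNA of the same domain, averaged 0.531 ± 0.476 CPM in KO bortezomib and 1.74 ± 1.35 CPM in WT bortezomib, and was not called.

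Groups that did not overlap at all give the same comparisons without a model. In WT HSCs 3 of 8 members had all bortezomib libraries on 1 side of all DMSO libraries, against 36.9% of all genes tested, and in KO HSCs 5 of 8 did, against 20.3%. Between KO and WT libraries the count was 4 of 8 under DMSO, against 18% of all genes, and 5 of 8 under bortezomib, against 44.1%. The median log2 fold change of the 8 members was -0.67 under bortezomib in KO and -0.58 in WT HSCs, where the medians of all genes were 0 and -0.04. In each genotype 3 of the 8 members had a positive fold change, as did 8118 (KO) and 7716 (WT) of 16149 genes. These medians include H19 and Peg3, which had few counts, and a shift of the members as a set was not tested.

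The 8 members were set beside 29 tested genes of a list of other imprinted genes. Bortezomib raised 1 of 29 and lowered 0 in KO HSCs (median log2 fold change 0.16), and raised 1 and lowered 0 in WT HSCs (median -0.2). Under bortezomib 4 of 29 were higher and 2 lower in KO than in WT. Slc22a18, a transporter gene in the Cdkn1c domain, rose where Cdkn1c fell. It averaged 50.6 ± 11.1 CPM in KO bortezomib against 19 ± 2.54 in KO DMSO, a log2 fold change of 1.41 (adjusted p = 0.0115), and 20.4 ± 9.79 CPM in WT bortezomib, which it exceeded by 1.31 (adjusted p = 0.0026). Phlda2, a growth-restraining gene of that domain, was lower in KO than in WT under bortezomib at 12.2 ± 9.08 against 34.3 ± 6.61 CPM (log2 fold change -1.49, adjusted p = 0.0113), and Kcnq1ot1, the non-coding RNA that silences the domain on the paternal copy, was higher at 27.5 ± 19.2 against 7.92 ± 2.14 CPM (1.79, adjusted p = 0.0061). Tssc4, also there, was higher in WT bortezomib than in WT DMSO libraries at 114 ± 9.22 against 70.6 ± 2.48 CPM (0.69, adjusted p = 0.0253). Under bortezomib Tssc4 was lower in KO than in WT, at 63.9 ± 16.3 CPM in KO bortezomib (-0.83, adjusted p = 0.00401). Sgce, a sarcoglycan gene outside that domain, was higher in KO than in WT under bortezomib at 89.1 ± 18.1 against 52 ± 17.6 CPM (0.78, adjusted p = 0.0166).

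Bortezomib moved genes of the G1 phase and of division differently in the genotypes. The response of 5 of 12 G1 genes and 11 of 20 proliferation genes was called in the interaction, lower in KO each time. Of the 12 tested G1 regulators (Cip/Kip and Ink4 inhibitors with their kinases and cyclins), bortezomib raised 2 and lowered 1 in KO HSCs, and raised 5 and lowered 0 in WT HSCs. Ccne1, a cyclin partner of Cdk2, averaged 5.39 ± 1.47 CPM in KO bortezomib against 36.1 ± 10.5 in WT bortezomib (log2 fold change -2.74, adjusted p = 0.000329). Cdk4, a G1 kinase, averaged 396 ± 111 CPM in KO bortezomib against 1200 ± 29.3 in WT bortezomib (-1.6, adjusted p = 0.000166). Of 20 proliferation genes, bortezomib raised 0 and lowered 4 in KO HSCs (median -0.5), and raised 12 and lowered 0 in WT HSCs (median 0.94), and 15 of 20 were lower in KO than in WT under bortezomib (median -1.33). Cdk1, the mitotic kinase, averaged 67.1 ± 10.7 CPM in KO bortezomib against 273 ± 45.2 in WT bortezomib libraries (-2.02, adjusted p = 7.67e-05), a pair of groups in which Cdkn1c was lower in KO as well.

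Around Igf2r and Grb10, of 19 tested genes of IGF and insulin signalling bortezomib lowered 1 in KO and 4 in WT HSCs and raised 0 in either. Igfbp4, which encodes a protein that binds IGFs outside the cell, fell in KO, at 164 ± 62.6 CPM in bortezomib against 439 ± 57 in DMSO libraries (log2 fold change -1.42, adjusted p = 0.00435). The insulin receptor gene Insr fell in WT, at 16.5 ± 2.66 CPM in bortezomib against 34.8 ± 5.2 in DMSO libraries (-1.08, adjusted p = 0.0168), and the forkhead factor gene Foxo1 fell in WT as well, at 20.9 ± 2.08 against 40.7 ± 2.86 CPM (-0.96, adjusted p = 0.0119). Under bortezomib 5 of 19 were higher and 3 lower in KO than in WT.

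Of 20 other genes linked to HSC dormancy, bortezomib raised 4 and lowered 3 in KO HSCs (median -0.33), and raised 0 and lowered 12 in WT HSCs (median -0.73). Tek, the receptor of angiopoietins, averaged 101 ± 14.6 CPM in KO bortezomib against 28.5 ± 4.2 in WT bortezomib (log2 fold change 1.83, adjusted p = 7.94e-05), where Cdkn1c was lower in KO. Angpt1, its ligand, fell under bortezomib in both genotypes, at 282 ± 4.44 CPM against 553 ± 74.3 in KO (-0.97, adjusted p = 0.00275) and 327 ± 4.29 against 747 ± 115 in WT (-1.19, adjusted p = 0.00193). Dlk1 is related by sequence to the Notch pathway, of which 11 receptors, ligands and targets were tested. Bortezomib raised 1 of them in KO, Hes1, at 17.3 ± 6.83 CPM in bortezomib against 4.39 ± 1.99 in DMSO libraries (1.99, adjusted p = 0.027). It lowered 1 in WT, the ligand gene Dll4, at 3, 3 and 0 counts in bortezomib against 73, 53 and 0 in DMSO libraries, groups that overlap at 0.

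Likeness of pattern was taken as the root mean square difference in centred log2 CPM over the 12 treatment libraries, for the 5 members that averaged at least 5 CPM, against 10300 protein-coding genes. The closest genes were Paqr5 and Bdh2 to Cdkn1c (both 0.29, where the median gene was at 0.79), Gstk1 (0.19) and Bphl (0.24) to Ndn (median 0.67), and Rcc2 (0.11) and Slc9a3r1 (0.14) to Grb10 (median 0.51). Gimap8 (0.4) and Lima1 (0.53) were closest to Igf2r (median 1.04), and Gmppb and Tmem219 (both 0.44) to Dlk1 (median 0.85).

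In the reporter experiment no member passed the adjusted test in edgeR in any of the 3 pairs of groups, where 0% (RFP single positive against double negative), 0.0065% (RFP GFP double positive against double negative, 1 gene, Vwf) and 0% (RFP single positive against RFP GFP double positive) of 15375 genes did. At an unadjusted p under 0.05 the fits gave 1160, 1315 and 209 genes in these pairs, 2 of them members each time. DESeq2 called 19, 42 and 2 genes, 1 of them a member each time, and limma voom called 0. Peg3 did not pass the filter on low counts here, with 0, 23 and 13 counts in RFP single positive, 0, 0 and 6 in RFP GFP double positive and 1, 4 and 0 in double negative libraries. Members without overlap numbered 2 of 7 (13.2% of all genes), 3 of 7 (11.2%) and 2 of 7 (7.36%) in these pairs. The pairs share libraries.

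H19 had 51, 48 and 21 counts in RFP single positive and 6, 61 and 27 in RFP GFP double positive libraries, against 0, 0 and 0 in double negative. The 6 libraries of cells sorted as positive for RFP, with or without GFP, thus lay above the 3 of cells sorted as double negative. Pooled over a group against the floor of 3 counts, H19 was at least 41.4-fold higher in RFP single positive than in double negative (adjusted p = 0.651 in edgeR). It was at least 30.4-fold higher in RFP GFP double positive than in double negative (adjusted p = 0.555 in edgeR). These bounds cover counting error in the double negative group only. They take the counts of the other group as exact and leave out the spread between libraries. The edgeR 95% intervals of the log2 fold changes were 4.64 to 12.08 and 4.2 to 11.57. With 0 counts in double negative libraries, the counts do not fix the size of these fold changes, so the intervals are rough. Of the 94 counts in RFP GFP double positive libraries 61 were in replicate 2, and without it that bound was 16.2-fold. Without double negative replicate 2 the bounds were 25.2-fold for RFP single positive and 18.5-fold for RFP GFP double positive. DESeq2 called both differences over all libraries, at adjusted p = 0.00379 and 0.00874. H19 passed the low-count filter only through the libraries sorted as positive for RFP, so these calls are not independent of that filter. Igf2, the neighbour of H19 that encodes IGF2, was looked at after its values were seen and was likewise lowest in double negative libraries. It had 49, 34 and 39 counts in RFP single positive and 27, 96 and 28 in RFP GFP double positive libraries, against 0, 0 and 1 in double negative (adjusted p = 0.608 and 0.555 against double negative). In the treatment experiment Igf2 had reads in all 12 libraries, including the WT bortezomib libraries in which H19 had none. Summed endothelial markers were 3.7 to 7.46 CPM in RFP single positive and 6.34 to 7.86 in RFP GFP double positive, against 1.8 to 7.31 in double negative libraries, and summed stromal markers were 14.9 to 32.2 and 26 to 37 CPM against 11.2 to 17 CPM. Cdh5, Sele, Lepr, Col3a1, Pdgfra and Lum were at 0 in all 3 groups, and the part of these cells in the H19 values was not tested.

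**Figure D4:**
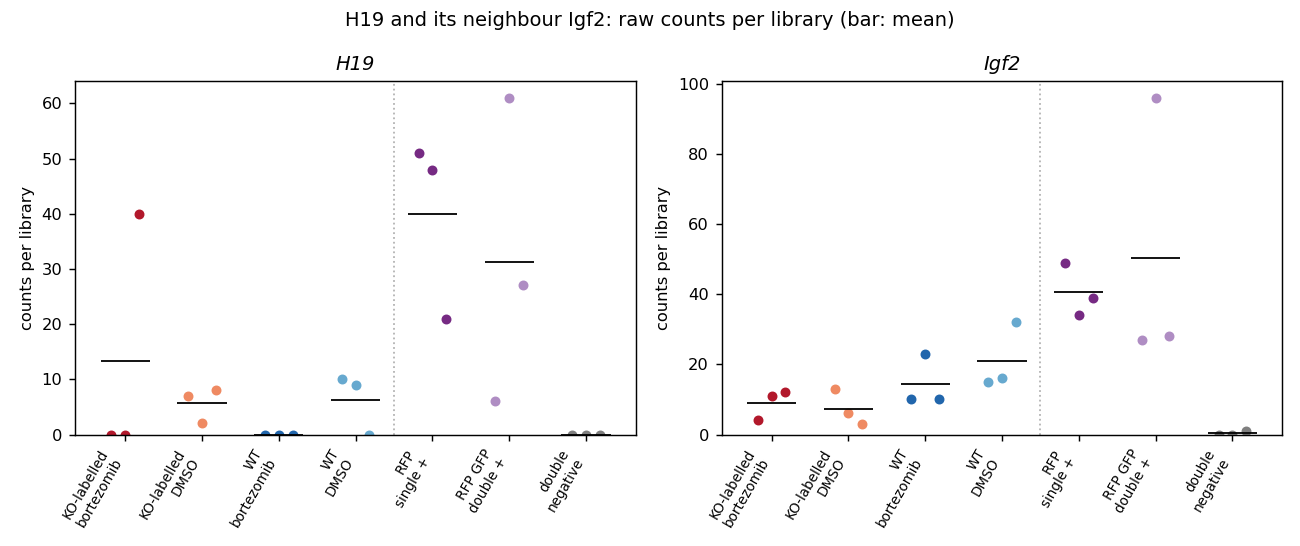
Raw counts of H19 and Igf2 (y axis, linear, own scale per gene) in each of the 21 libraries by group (x axis), with the mean as a line. Both genes have counts in all 6 RFP single positive and RFP GFP double positive libraries, and the double negative libraries hold 0 counts of H19 and 1 of Igf2.

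Dlk1 read 14, 7.71 and 13.5 CPM in RFP single positive and 2.74, 2.68 and 2.92 CPM in RFP GFP double positive libraries, against 5.96, 9.77 and 4.88 CPM in double negative. The RFP GFP double positive libraries were the lowest 3 of the 9 and lay close together. The log2 fold change was 2.07 for RFP single positive over RFP GFP double positive (SE 0.44, adjusted p = 1 in edgeR and 0.0304 in DESeq2) and -1.3 for RFP GFP double positive over double negative (SE 0.43, adjusted p = 0.555). Meg3 had the same order of groups, at 1.43, 1.87 and 2.19 CPM in RFP single positive and 0.215, 0.227 and 0.584 CPM in RFP GFP double positive libraries, against 1.19, 1.68 and 0.609 CPM in double negative. Meg3 counts were low, at 30, 38 and 42 in RFP single positive, 4, 5 and 14 in RFP GFP double positive and 24, 41 and 11 in double negative libraries. The third RFP GFP double positive library thus held more Meg3 reads than the third double negative library, though its CPM was lower. The log2 fold change of Meg3 was 2.39 for RFP single positive over RFP GFP double positive (SE 0.99, adjusted p = 1). Summed levels of 6 neutrophil markers were 8.25 to 10.7 CPM in RFP single positive and 17.3 to 32.9 in RFP GFP double positive, against 21.2 to 56.5 in double negative libraries. Those of 6 monocyte and macrophage markers were 37.9 to 47.6 CPM in RFP single positive and 71.6 to 120 in RFP GFP double positive, against 43.5 to 168 in double negative libraries. None of these markers was at 0 in any reporter group, and the part of these cells in the Dlk1 and Meg3 values was not tested.

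**Figure D5:**
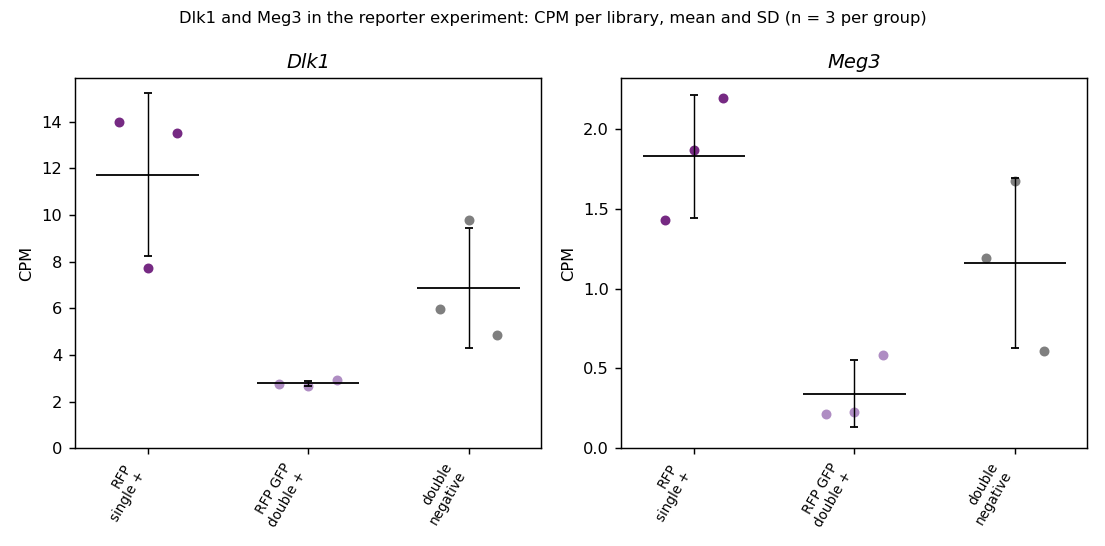
CPM of Dlk1 and Meg3 (y axis, linear, own scale per gene) in each library of the 3 reporter groups (x axis), with mean and SD (n = 3). For both genes the 3 RFP GFP double positive libraries are the lowest in CPM, with means of 2.78 CPM for Dlk1 and 0.342 CPM for Meg3. For Meg3 the nearest libraries are at 0.584 CPM (14 counts, RFP GFP double positive) and 0.609 CPM (11 counts, double negative).

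For Cdkn1c and Ndn, the most abundant members per length, the reporter groups overlapped. Cdkn1c read 131.3, 101.8 and 83.7 CPM in RFP single positive and 110.5, 93.4 and 84.9 CPM in RFP GFP double positive libraries, against 120.8, 51 and 62.9 CPM in double negative. Ndn read 157.4, 102.6 and 110.2 CPM in RFP single positive and 113.9, 107.8 and 90.5 CPM in RFP GFP double positive libraries, against 150.8, 60.3 and 91.9 CPM in double negative. Double negative replicate 1 was the second highest of the 9 libraries for each gene. The 95% interval of the log2 fold change of RFP single positive over double negative ran between -0.21 and 1.07 for Cdkn1c and between -0.34 and 0.92 for Ndn.

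Grb10 read 87, 115.5 and 88.8 CPM in RFP single positive and 84.8, 72.2 and 120.6 CPM in RFP GFP double positive libraries, against 22, 68.6 and 72.7 CPM in double negative. Igf2r read 6.56, 4.37 and 5.37 CPM in RFP single positive and 4.89, 7.91 and 7.21 CPM in RFP GFP double positive libraries, against 0.696, 0.695 and 6.92 CPM in double negative. The double negative libraries were thus unlike each other for both genes, with replicate 1 low for Grb10 and replicates 1 and 2 low for Igf2r. RFP single positive over double negative gave a log2 fold change of 0.83 for Grb10 (SE 0.36, adjusted p = 0.651) and 0.98 for Igf2r (SE 0.78, adjusted p = 0.748). The summed level of the 8 HSC markers was 1740 to 1940 CPM in RFP single positive and 1470 to 2230 in RFP GFP double positive libraries, against 1110, 1200 and 1880 CPM in double negative replicates 1, 2 and 3. Double negative replicate 2 had the highest sums of the 9 libraries for erythroid markers (186 CPM), monocyte and macrophage markers (168 CPM) and Cd48 and Flt3 together (115 CPM). Their part in the Grb10 and Igf2r values was not tested.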

How the data were processed

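Sorted mouse HSCs gave 21 RNA libraries, and the sample labels place 3 in each of 7 groups. The values are raw gene counts as deposited. Per the labels' protocols, RNA was extracted with an RNeasy Plus Micro kit and libraries were made by SMART-seq2. The submitters' processing notes name Bowtie 1.0.0, STAR 2.6.1 and HTSeq 0.7.1, and the builds GRCm38.p4 and GRCh38 with no role for either. For the annotation release and strand setting, no source used here has an entry. Positions are GRCm38 (GENCODE), and 0 columns of the table lacked a sample.

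Each experiment had 1 edgeR 4.0.16 quasi-likelihood fit (R 4.3.3) with a mean per group, after filterByExpr and TMM scaling, which tested 16149 genes (treatment) and 15375 genes (reporter). A call is a Benjamini-Hochberg adjusted p under 0.05 over all genes tested. SEs are the log2 fold change divided by the root of F, and 95% intervals use the t distribution. The floor of 3 counts equals 0.0964 to 0.19 CPM in single libraries; it covers counting error only. The procedure was also run on simulated counts of independent libraries. Those runs do not show how it performs with paired libraries or with groups that differ in sex. No 2 libraries of a group were duplicates, and none was left out.

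Alternatives were relative log expression scaling, DESeq2 1.42.0, limma 3.58.1 voom with sample weights, fits of the compared groups alone, no low-count filter, a replicate block, the Xist share as a covariate, length and GC offsets, leaving out 3 libraries that stood apart (WT DMSO, WT bortezomib and KO bortezomib replicate 3), and leaving out each library.

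The members and all lists were chosen with earlier results of these data known. Named are all 8 members, Atg5, up to 2 called genes of each list with the smallest p per comparison, of which the text gives a part, and the 2 genes most like each member. Domain neighbours and Cdkn1b were added after their values were seen. Figures were drawn with matplotlib.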

Additional observations from a re-analysis of the deposited data

Results flagged for a closer look

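The response of Grb10 to bortezomib differed between genotypes by -0.97 on the log2 scale (KO minus WT, SE 0.25, adjusted p = 0.0288 for the interaction in edgeR). Grb10 was lower under bortezomib in KO libraries, at 67.7 ± 10.9 CPM against 119.6 ± 18.2 CPM in KO DMSO, and not in WT libraries, at 92.6 ± 7.88 CPM against 83.4 ± 12.7 CPM in WT DMSO (SD, n = 3 each). The call ended in 8 of 20 alternative fits, with values of -1.17 to -0.85 over all 20. Adjusted p over those fits was 0.0029 to 0.0996. Besides 7 fits that each left out 1 library, the fit with the Xist share as a covariate lost the call (adjusted p = 0.0533).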

How the results depend on the processing

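No fold change of a called member reversed under any alternative. Counts of members called moved by over 1.5 times as follows. DESeq2 called 5 of 8 for bortezomib in KO (3 in edgeR), 2 in the interaction (1 in edgeR), and 1 of 7 in each reporter pair (0 in edgeR). Limma voom called 5 for bortezomib in WT (2 in edgeR), 5 for genotype under bortezomib (3 in edgeR) and 2 in the interaction. Fitting only the KO libraries left 1 call for bortezomib in KO, and the Xist share as a covariate left 0 in the interaction. Leaving out 1 library gave 0 to 3 calls for bortezomib in KO, 0 to 2 in WT, 1 to 3 for genotype under bortezomib, 0 to 2 in the interaction, 0 to 0 for genotype under DMSO and 0 to 0 in each reporter pair. For Cdkn1c under bortezomib, KO against WT, the fold change stayed between -1.42 and -0.88 over 15 alternatives, with adjusted p of 3.8e-06 to 0.00985. The cause of these shifts was not tested. Of 48 list counts under relative log expression, 47 stayed within 1.5 times and 1 did not (other imprinted genes under bortezomib in KO, 2 in place of 1). H19 and Peg3 had 0 counts in some libraries, where the floor of 3 counts limits what can be read.

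The labels do not say whether same-numbered libraries came from the same mice, and the main fits did not pair them. In the reporter experiment the Xist share followed the numbers. It was 99.9% (RFP single positive), 97.4% (RFP GFP double positive) and 88.1% (double negative) in replicate 2, and at most 10.2% in the other reporter libraries. Deviations of same-numbered libraries correlated at -0.03 to 0.2 (median 0.04) in the treatment and -0.01 to 0.16 (median 0.09) in the reporter experiment, and 8 of 12 and 8 of 9 libraries lay closest to their own number, a hint from the data and not the design. With the replicate block, edgeR called 3 members for bortezomib in KO, 3 in WT, 4 for genotype under bortezomib, 1 in the interaction and 0 elsewhere. Ndn was then called under bortezomib in KO (-0.79, adjusted p = 0.0324) and WT (-0.61, 0.0395) and Grb10 for genotype under bortezomib (-0.45, 0.0473), while Igf2r in KO was not (-1.67, 0.0635).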
